A study of Rattus norvegicus with 4 samples.

Results

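The genes described here were the platelet-derived growth factor (PDGF) receptors Pdgfra and Pdgfrb and the PDGF ligand genes Pdgfa, Pdgfb and Pdgfc, measured in rat hepatic stellate cells. A probe was taken when its gene name in the scanner files, with the endings predicted and mapped dropped, was one of these 5 names. This gave 5 probes, 1 per gene and each printed as 1 spot, of 41012 gene probes for 35537 gene names on the array. Of the 5, 4 passed the filter on dim probes and were tested; the Pdgfc probe was above background on 1 array and was not tested. The Pdgfb probe passed the filter through the untreated arrays alone.

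The groups set against each other were cells transfected with an siRNA against endoglin, a co-receptor for transforming growth factor beta and bone morphogenetic proteins, untreated cells, and cells transfected with a control siRNA. Each of the 4 arrays carried RNA of endoglin siRNA cells or untreated cells in the red dye Cy5 and RNA of control siRNA cells in the green dye Cy3, with no dye swap. A difference from control siRNA cells and an effect of the dye on a probe therefore cannot be told apart. For ratios to control siRNA, rose and fell mean passing the test as higher or lower than in those cells. Endoglin siRNA cells and untreated cells had 2 arrays each, 1 with RNA of 1 animal and 1 with RNA pooled from 3 animals; control siRNA cells of the same kind filled the other dye. Whether the single animal was also part of the pool, whether arrays shared a control RNA, the strain, the age, the siRNA sequences, the time after transfection and the days in culture are not stated in the labels. RNA came from whole cultures, so a change in the share of a cell type and a change in RNA per cell cannot be told apart.

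PDGF chains are secreted as dimers that bind receptor tyrosine kinases of class III. Receptor alpha binds dimers holding the A, B or C chain, and receptor beta binds chiefly dimers holding the B chain or the D chain. In the liver, stellate cells are the pericyte-like cells that store vitamin A in health and turn into collagen-producing myofibroblasts after injury, and PDGF acting through receptor beta is a strong growth and migration signal for them in that state.

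The deposited files place the probes of Pdgfra, Pdgfb and Pdgfc on 60 bases each, at chr14:35369708-35369767 on the minus strand, chr7:118283820-118283879 on the minus strand and chr2:172718735-172718794 on the plus strand. The Pdgfrb probe lies at chr18:57125637-57125695 on the plus strand, and the interval of the Pdgfa probe, chr12:16190596-16192810 on the plus strand, spans 2215 bases. The genome build of these probe positions is not stated in the file headers or labels. RefSeq windows of 300 bases around the gene start, most of them upstream of it, on the assembly GRCr8, were matched by symbol for 4 of the 5 genes. They are shown for Pdgfra, the receptor gene that passed the test in endoglin siRNA cells against control siRNA, and for Pdgfa, the bright ligand gene that did not. Because endoglin acts on receptors that signal through Smad proteins, the windows were searched on both strands for a short Smad-binding element (CAGAC, or GTCTG on the other strand), a GC-rich element bound by BMP-activated Smads (GGCGCC) and the CCAAT box (CCAAT, or ATTGG on the other strand). Matches are in capitals. The Pdgfra window is chr14:33408467-33408766 on the minus strand and the Pdgfa window is chr12:20759116-20759415 on the plus strand.
Pdgfra: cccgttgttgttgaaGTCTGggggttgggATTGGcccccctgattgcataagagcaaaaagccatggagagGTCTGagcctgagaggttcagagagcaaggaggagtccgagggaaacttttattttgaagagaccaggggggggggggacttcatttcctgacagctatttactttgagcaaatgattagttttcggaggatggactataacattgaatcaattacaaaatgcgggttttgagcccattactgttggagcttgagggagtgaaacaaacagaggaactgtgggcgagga
Pdgfa: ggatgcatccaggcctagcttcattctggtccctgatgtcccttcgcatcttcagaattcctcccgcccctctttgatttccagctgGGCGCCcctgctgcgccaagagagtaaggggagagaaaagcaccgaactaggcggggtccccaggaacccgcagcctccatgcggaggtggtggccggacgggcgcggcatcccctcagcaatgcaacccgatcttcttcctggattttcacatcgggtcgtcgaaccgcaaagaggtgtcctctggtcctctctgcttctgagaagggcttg
The Pdgfra window held 2 matches to the Smad-binding element and 1 to the CCAAT box, and the Pdgfa window held 1 match to the GC-rich element. The windows of Pdgfb and Pdgfc held 0 matches to any of the 3 motifs. Among 33469 such windows of 300 bases, 50.06% held the Smad-binding element at least once and 16.06% held 2 or more; 11.02% held the GC-rich element and 37.49% the CCAAT box. These are descriptions of the letters in the windows, and no data here bear on binding.

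The arrays were first checked for their labels. Endoglin (Eng) had log2 ratios to control siRNA of -3.08 on the 1-animal array and -1.72 on the pooled array of endoglin siRNA cells, and of -0.36 and -0.42 on the arrays of untreated cells. It fell to a mean log2 ratio of -2.40 ± 0.26 in endoglin siRNA cells (5.29-fold, SE, n = 2 arrays, adjusted p = 0.00429, limma). The knockdown was therefore deeper with the RNA of 1 animal than with the pool. Of 12 stellate cell markers, 11 were well above background in all 8 channels, with Gfap the exception. The summed normalized intensity of these markers was 272937 to 289447 in endoglin siRNA cells, 306967 to 315823 in untreated cells and 215634 to 248532 in control siRNA cells. The pooled array of untreated cells stood apart in sensitivity, with 93.3% of gene spots well above background in Cy5 against 65.7% to 70.2% on the other 3 arrays.

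Pdgfra was higher than in control siRNA cells on every array, and passed the test in endoglin siRNA cells. Its log2 ratios to control siRNA were 0.43 with RNA of 1 animal and 0.81 with pooled RNA in endoglin siRNA cells, and 0.35 on each array of untreated cells. The ratios of endoglin siRNA cells thus lay above those of untreated cells, by 0.08 with RNA of 1 animal and by 0.46 with the pool. The mean log2 ratio in endoglin siRNA cells was 0.62 ± 0.09 (1.54-fold, SE, n = 2 arrays, 95% confidence interval 0.41 to 0.83, adjusted p = 0.0105, limma). This ratio sets Cy5 against Cy3 on each array, and an effect of the dye was not tested. Pdgfra was the 1 of the 4 tested PDGF probes that passed in this comparison, in which 8.26% of all 29860 tested probes passed, 5.18% as higher and 3.08% as lower. Its log2 ratio lay at percentile 99.5 of all tested probes. The p-values cover the spread between ratios of the arrays only, and leave out any spread of a control RNA that arrays may have shared.

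**Figure D1:**
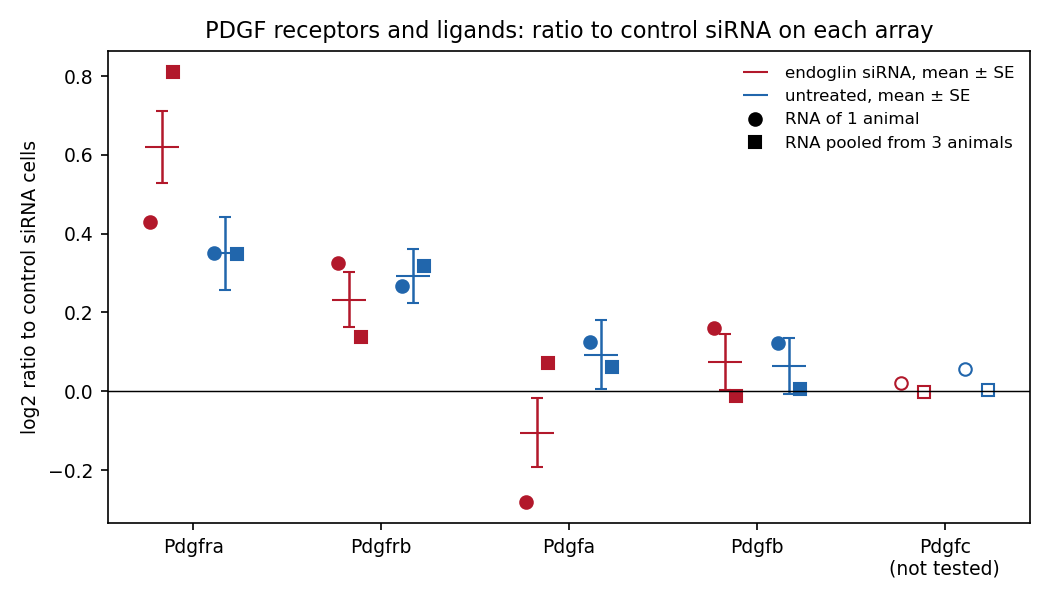
Log2 ratio to control siRNA cells (vertical axis) of the 5 PDGF genes on each array, with endoglin siRNA cells in red left of untreated cells in blue. Circles are RNA of 1 animal, squares are RNA pooled from 3 animals, horizontal marks with bars are the mean ± SE of the limma fit (n = 2 arrays), and open symbols mark Pdgfc, which was not tested. The Pdgfra ratios of endoglin siRNA cells, 0.43 and 0.81, lie above both ratios of untreated cells, 0.35.

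The ratio of Pdgfra to control siRNA in endoglin siRNA cells was positive in all 14 alternative settings and passed the test in 10 of them. Its value could not change with the filter, flagged spots, choice of probe, RNA source as a block or an untreated array left out. In those settings the sign was fixed in advance. The log2 ratio of Pdgfra was 0.43 without the pooled endoglin siRNA array and 0.81 without the 1-animal one. The 10 include these fits, in which endoglin siRNA cells had 1 array and no spread of their own. The call ended with the log ratios of the Feature Extraction software (0.71, adjusted p = 0.082), with the deposited value table (0.71, adjusted p = 0.082), when loess was replaced by median centring (1.70, adjusted p = 0.207) and when arrays were also scaled to each other (1.45, adjusted p = 0.432); in those 4 settings 0 of all tested probes passed, although 1728 to 8596 had an unadjusted limma p under 0.05. Median centring leaves the dependence of ratios on brightness in place: the 1384 probes within 0.5 log2 units of Pdgfra in brightness had a median log2 ratio of 1.1 under it. Measured from the median of those probes, Pdgfra stood at 0.59 after loess, 0.60 after median centring and 0.69 in the Feature Extraction log ratios.

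In the untreated cells the mean log2 ratio of Pdgfra to control siRNA was 0.35 (1.27-fold, 95% confidence interval 0.14 to 0.56, n = 2 arrays, adjusted p = 0.146, limma) and did not pass. In that comparison 0 of the 4 PDGF probes passed, against 0.784% of all tested probes (0.462% as higher, 0.322% as lower). The 2 receptors had an unadjusted limma p under 0.05, as did 4172 of all 29860 tested probes. Pdgfra did pass in untreated cells with the RNA source as a block (0.35, adjusted p = 0.034) and without the 1-animal or the pooled endoglin siRNA array (0.35, adjusted p = 0.028 and 0.027), where the value stayed the same and the estimated spread changed. Under median centring the pooled untreated array gave -0.24 and the 1-animal array 1.17. Set directly against untreated cells, endoglin siRNA cells had a log2 difference of 0.27 ± 0.13 (SE, n = 2 arrays each, 95% confidence interval -0.03 to 0.57, adjusted p = 0.692, limma). Here 0 of the 4 PDGF probes passed, against 0.100% of all tested probes (0.0368% as higher, 0.0636% as lower). At an unadjusted limma p under 0.05 it was 0 of 4, beside 2396 of all tested probes. The difference between endoglin siRNA cells and untreated cells was thus not shown. It was positive in all 14 alternative settings, between 0.08 and 1.23, but these reuse the same arrays. The filter, flagged spots, choice of probe and RNA source as a block could not change the difference. It was smallest, 0.08, without the pooled endoglin siRNA array.

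As normalized log2 intensity, Pdgfra averaged 12.87 ± 0.14 in endoglin siRNA cells and 12.64 ± 0.01 in untreated cells (SD, n = 2 channels each), and 12.27 ± 0.08 in control siRNA cells (SD, n = 4 channels, 12.16 to 12.34). The 3 groups of channels did not overlap, but these levels were computed from the same normalized ratios, and control siRNA cells were always in Cy3. How many of all probes separate in this way was not counted. The scanner's mean Cy5 signals were 12034 and 13598 on the endoglin siRNA arrays and 9402 and 12321 on the untreated arrays; the Cy3 signals of control siRNA cells on the same arrays were 2847, 2599, 2651 and 2767. These raw signals of the 2 dyes are on different scales and were compared only after normalization within each array.

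**Figure D2:**
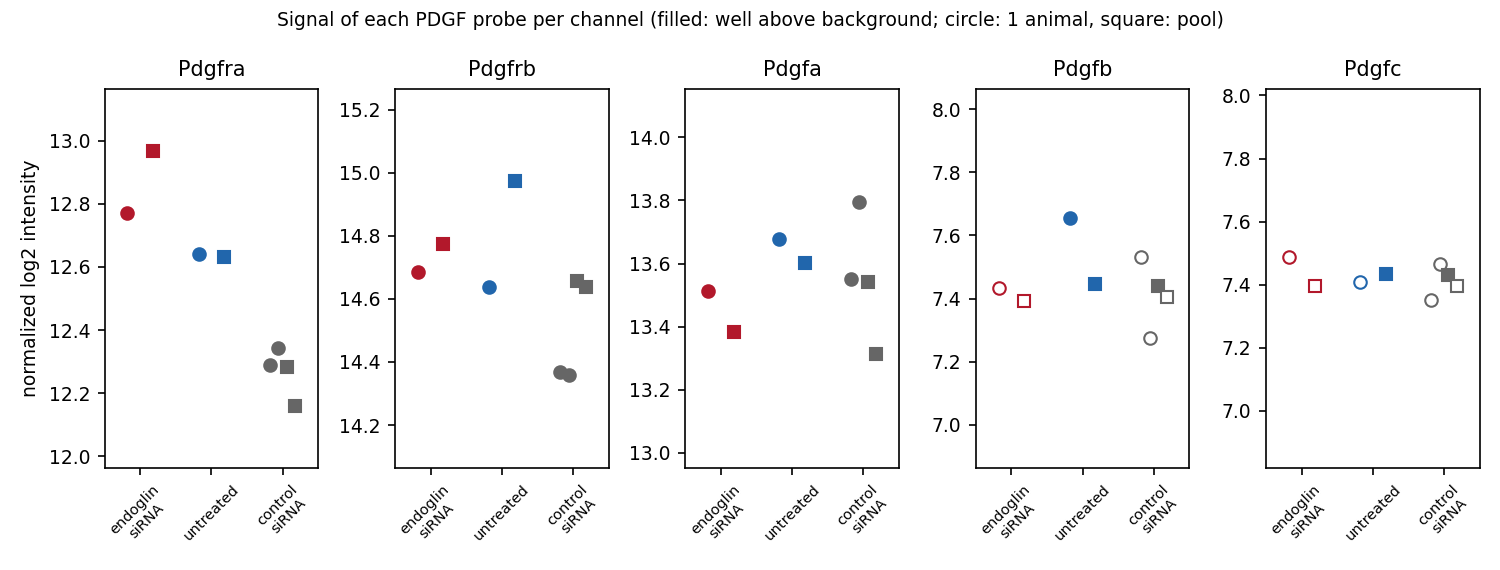
Normalized log2 intensity (vertical axis, the same height of range in each panel) of each PDGF probe in endoglin siRNA, untreated and control siRNA cells. Each point is 1 channel of 1 array, circles are RNA of 1 animal, squares are pooled RNA, and filled points were well above background. In the Pdgfra panel the endoglin siRNA points lie highest and the control siRNA points, at most 12.34, lie lowest; the Pdgfb and Pdgfc points are mostly open.

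Pdgfrb, the receptor through which PDGF drives stellate cell growth, was bright in every channel and was higher than in control siRNA cells on every array. Its log2 ratios to control siRNA were 0.33 with RNA of 1 animal and 0.14 with the pool in endoglin siRNA cells, and 0.27 and 0.32 in untreated cells. The 2 groups of ratios overlapped. The mean log2 ratio in endoglin siRNA cells was 0.23 ± 0.07 (1.17-fold, SE, n = 2 arrays, 95% confidence interval 0.07 to 0.39, adjusted p = 0.0887, limma). That of untreated cells was 0.29 (1.22-fold, 95% confidence interval 0.13 to 0.46, n = 2 arrays, adjusted p = 0.114, limma). Neither passed, and both confidence intervals lay above 0.

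Pdgfrb passed after endoglin siRNA with no background correction (0.26, adjusted p = 0.049) and with the RNA source as a block (0.23, adjusted p = 0.049, both by limma). Without the pooled endoglin siRNA array its value was 0.33, and without the 1-animal array it was 0.14. In untreated cells it passed with the RNA source as a block (0.29, adjusted p = 0.045) and without either endoglin siRNA array (adjusted p = 0.047 each time). Both ratios to control siRNA were positive in all 14 alternative settings, several of which could not change these values. Between endoglin siRNA cells and untreated cells Pdgfrb differed by -0.06 (95% confidence interval -0.29 to 0.17, n = 2 arrays each, adjusted p = 0.957, limma), and this sign turned in 3 of 14 alternative settings.

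The scanner's mean Cy5 signals of Pdgfrb were 47759 and 52200 on the endoglin siRNA arrays and 41776 and 65923 on the untreated arrays. Its normalized log2 intensity averaged 14.73 ± 0.06 in endoglin siRNA cells and 14.81 ± 0.24 in untreated cells (SD, n = 2 channels each) and 14.51 ± 0.16 in control siRNA cells (SD, n = 4 channels). The levels of untreated cells overlapped those of both other groups, and both pooled arrays were brighter than the 1-animal arrays in both dyes. Set against the 603 probes of like brightness, Pdgfrb lay above their median log2 ratio by 0.31 in endoglin siRNA cells and by 0.31 in untreated cells. With RNA of 1 animal the receptors had similar ratios: the log2 ratio of Pdgfra minus that of Pdgfrb was 0.10 in endoglin siRNA cells and 0.08 in untreated cells. With pooled RNA this difference was 0.67 in endoglin siRNA cells and 0.03 in untreated cells; the value of 0.67 was the largest of the 4 and comes from a single array.

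**Figure D3:**
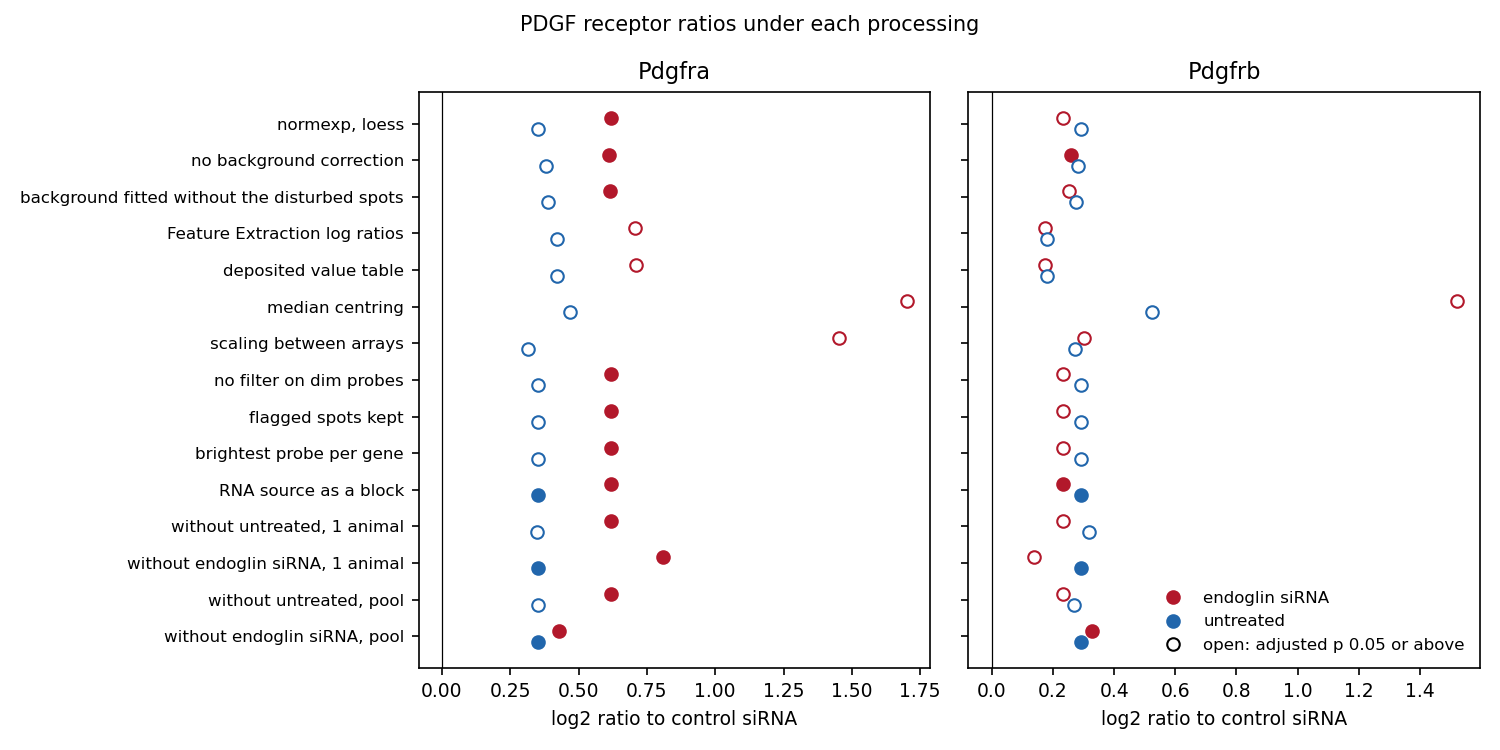
Log2 ratio to control siRNA (horizontal axis) of Pdgfra and Pdgfrb under the processing used here, in the first row, and under each of 14 alternatives in the rows below it, with endoglin siRNA cells in red above untreated cells in blue. Filled points had a limma adjusted p under 0.05. All points lie right of 0, and for Pdgfra in endoglin siRNA cells 10 of the 14 alternatives are filled.

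Pdgfa, which encodes the A chain of PDGF, was the ligand gene with a strong signal, and it moved little. Its log2 ratios to control siRNA were -0.28 with RNA of 1 animal and 0.07 with the pool in endoglin siRNA cells, and 0.13 and 0.06 in untreated cells. The groups overlapped and the 2 endoglin siRNA arrays lay on opposite sides of 0. The mean log2 ratio in endoglin siRNA cells was -0.10 ± 0.09 (SE, n = 2 arrays, 95% confidence interval -0.31 to 0.10, adjusted p = 0.556, limma), and that in untreated cells was 0.09 (95% confidence interval -0.11 to 0.30, n = 2 arrays, adjusted p = 0.734, limma). Endoglin siRNA cells and untreated cells differed by -0.20 (95% confidence interval -0.49 to 0.09, adjusted p = 0.802, limma); by RNA source the difference was -0.41 with RNA of 1 animal and 0.01 with the pool. Without the 1-animal array of endoglin siRNA cells the ratio to control siRNA was 0.07. Its mean Cy5 signals were 20747 and 18716 on the endoglin siRNA arrays and 20662 and 24856 on the untreated arrays.

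Pdgfb, which encodes the B chain of the dimer that binds both receptors, was close to the background of the arrays. Its mean Cy5 signals were 58.9 and 56.5 on the endoglin siRNA arrays, where the local background was 55.5 and 56.5, and 81.9 and 129 on the untreated arrays, where it was 54.5 and 48. The probe was well above background in 0 of 2 channels of endoglin siRNA cells, 2 of 2 channels of untreated cells and 1 of 4 channels of control siRNA cells. Because the probe entered the test through the untreated arrays, no fold is given between these groups; the normalized log2 means were 7.41 in endoglin siRNA cells and 7.55 in untreated cells, and the log2 ratios to control siRNA differed by 0.01 between them (adjusted p = 0.997, limma). The pooled untreated array, the more sensitive of the 4, gave 1 of the 2 detections in untreated cells.

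The log2 ratios of Pdgfb to control siRNA were 0.16 with RNA of 1 animal and -0.01 with the pool in endoglin siRNA cells, and 0.12 and 0.01 in untreated cells. On both pooled arrays the fitted background was pulled down by 10 spots whose local background lay far above their signal (6 on the untreated and 4 on the endoglin siRNA array). The fitted Cy5 background mean was -486 on the endoglin siRNA pool and -775 on the untreated pool with these spots, and -11.1 and -0.05 without them. Fitted without them, the pooled ratios of Pdgfb were -0.16 in endoglin siRNA cells and 0.05 in untreated cells, while the log2 ratios of both receptors to control siRNA stayed above 0. The mean log2 ratio of Pdgfb was 0.07 in endoglin siRNA cells (95% confidence interval -0.09 to 0.24, adjusted p = 0.609) and 0.07 in untreated cells (95% confidence interval -0.10 to 0.23, adjusted p = 0.770), each with n = 2 arrays in limma.

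Pdgfc, the gene of the C chain, which is secreted in a latent form and cleaved outside the cell, was measured above background on the pooled untreated array alone, in both of its dyes. Its mean Cy5 signals were 62.9 and 56.8 on the endoglin siRNA arrays and 58.8 and 118 on the untreated arrays. Its log2 ratios lay between -0.00 and 0.06 under the processing used here, and no fold is given. They lay between -1.13 and 0 in the Feature Extraction log ratios and between -0.55 and 0.13 under median centring. A difference in Pdgfb or Pdgfc was not detectable at this signal.

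**Figure D4:**
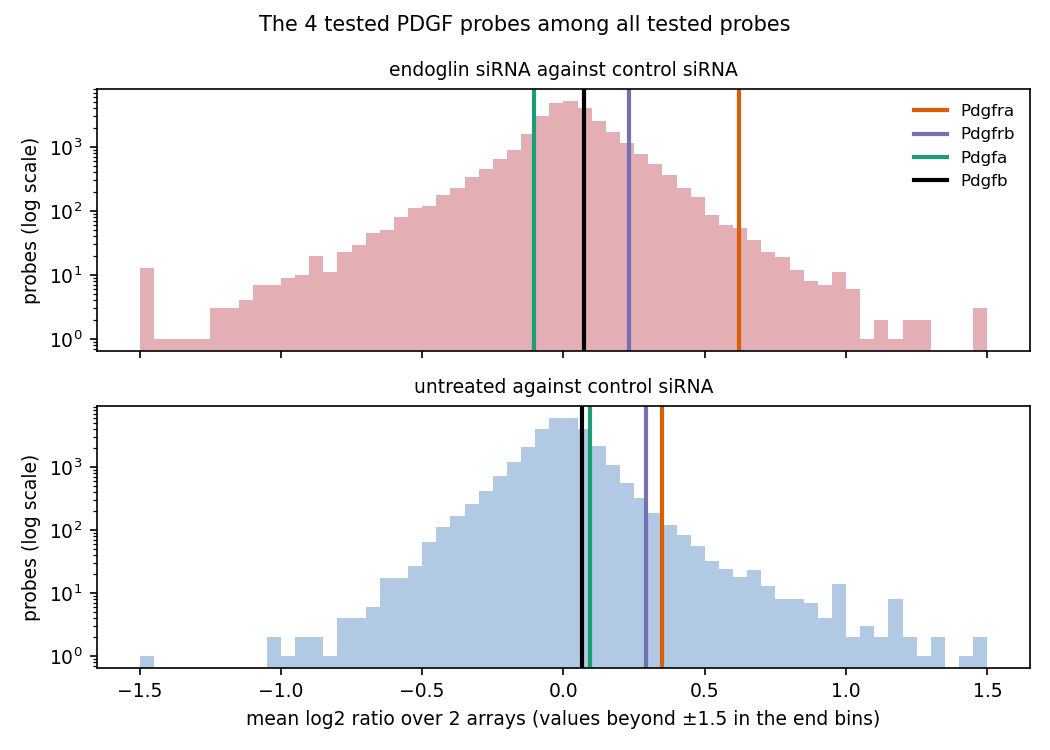
Number of tested probes (vertical axis, log scale) by mean log2 ratio to control siRNA over 2 arrays (horizontal axis) in endoglin siRNA cells, upper panel, and untreated cells, lower panel. Vertical lines mark the 4 tested PDGF probes. Pdgfra, at 0.62 in endoglin siRNA cells, lies in the right tail, and Pdgfa and Pdgfb lie near the middle of both panels.

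The genes whose ratios over the 4 arrays lay nearest to each member were named by the smallest Euclidean distance between log2 ratios. For Pdgfra they were Arhgap24 (distance 0.14) and Exoc2 (0.17), where the median gene lay at 1.04. For Pdgfrb they were Dkk3 (0.07) and Rpl6 (0.08), with a median of 0.58. For Pdgfa they were Cav2 (0.06) and Rasd1 (0.07), with a median of 0.42. For Pdgfb they were Or10d5b (0.02) and Mtcl1 (0.02), with a median of 0.33. With 4 arrays many genes lie near by, and the nearness of Pdgfb to its neighbours is that of probes with ratios close to 0.

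Genes that bind, cleave or accompany PDGF outside the cell moved in both directions after endoglin siRNA: of 13 tested genes of a list of 15, 1 rose and 3 fell against control siRNA, with a median log2 ratio of -0.26. Of all 25525 tested genes, by the brightest probe of each, 5.46% were higher and 2.98% lower by this test, with a median of 0.02. A2m, the plasma protease inhibitor that also carries PDGF, fell by 3.12 on the log2 scale (SE 0.28, n = 2 arrays, adjusted p = 0.00336, limma), with -3.79 with RNA of 1 animal and -2.46 with the pool. Sparc, a matrix protein that binds PDGF and keeps it from its receptors, rose by 0.82 in endoglin siRNA cells (adjusted p = 0.0163, limma). Sparc also rose by 0.88 in untreated cells (adjusted p = 0.0472, limma), where it was the 1 gene of the list that passed. Among all tested genes 0.50% were higher and 0.32% lower in untreated cells. Lox, a collagen cross-linking oxidase, had -0.67 (adjusted p = 0.0244, limma), and Lrp1, an endocytic receptor that is phosphorylated by receptor beta, had -0.37 (adjusted p = 0.0284, limma); both turned positive under median centring, to 0.69 and 0.46.

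Single arrays decided several of these calls. Sparc no longer passed in endoglin siRNA cells without their pooled array (0.70), nor in untreated cells without theirs (0.55). Lox no longer passed without the 1-animal endoglin siRNA array (-0.38), and Lrp1 lost its call without either endoglin siRNA array (-0.40 and -0.35). Without the 1-animal endoglin siRNA array 1 gene of this list fell, and without the pooled one 5 fell; the median was then -0.06 and -0.35. Against untreated cells 0 of the 13 passed, beside 0.04% higher and 0.06% lower among all tested genes. Of the 13, 2 had an unadjusted limma p under 0.05, beside 8.37% of all tested genes. A2m had -3.15 (adjusted p = 0.0581) and Lox -1.01 (adjusted p = 0.17) by limma with n = 2 arrays each. Sparc had -0.06 and Lrp1 -0.11 against untreated cells. The remaining PDGF family members on the list, Pdgfd, the D chain, and Pdgfrl, a receptor-like gene, each had a log2 ratio of 0.06 in endoglin siRNA cells and did not pass.

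Of 27 tested adaptors, kinases and phosphatases that act next to the receptors, 4 rose and 2 fell after endoglin siRNA against control siRNA, with a median log2 ratio of 0.05, beside 5.46% higher and 2.98% lower among all tested genes. The 4 that rose were Rasa1, a GTPase-activating protein for Ras (0.38), Nck1, an adaptor (0.35), Sos1, a Ras exchange factor (0.35), and Ptpn1, a tyrosine phosphatase that acts on the receptors (0.32). Shc1, an adaptor, had -0.40 and Src, a tyrosine kinase, had -0.30, and both turned positive under median centring, to 0.38 and 0.36. With the background fitted without the spots whose local background lay far above their signal, Shc1 had -0.59 and Src -0.47. Rasa1, Nck1, Sos1 and Ptpn1 then had 0.37, 0.33, 0.30 and 0.27. Adjusted p of these 6 genes lay between 0.0119 and 0.0477 in limma, and each lost its call when 1 or more of the 4 arrays was left out: Rasa1 and Nck1 without the pooled endoglin siRNA array (0.30 and 0.22), Sos1, Shc1 and Src without the 1-animal one (0.31, -0.38 and -0.19), Ptpn1 without either (0.33 and 0.31), and Nck1, Ptpn1 and Src also without either untreated array. In untreated cells 0 of 27 passed by limma against control siRNA, beside 0.50% higher and 0.32% lower among all tested genes. Of the 27, 5 had an unadjusted limma p under 0.05, beside 13.8% of all tested genes. Plcg1, a phospholipase, had -0.33 and Src -0.30. Between endoglin siRNA cells and untreated cells 0 of 27 passed, beside 0.04% higher and 0.06% lower among all tested genes. Of the 27, 2 had an unadjusted limma p under 0.05, beside 8.37% of all tested genes. Sos2 had 0.30 and Rasa1 0.27. The other genes that rose or fell against control siRNA had 0.20 (Sos1), 0.18 (Ptpn1), 0.16 (Nck1), -0.15 (Shc1) and 0.01 (Src).

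Among 16 Ras, MAP kinase and Akt pathway kinases and GTPases, 1 rose and 2 fell after endoglin siRNA, with a median of 0.01; the share that rose, 1 of 16, was near the 5.46% of all tested genes, of which 2.98% were lower. Akt1, a kinase of the survival arm, had -0.55 (adjusted p = 0.00845, limma) and passed with each array left out; it also passed in untreated cells, with -0.51 (adjusted p = 0.0359, limma), but there it lost its call without either untreated array (-0.63 and -0.40). Map2k1, a MAP kinase kinase, had -0.47, and Pdpk1, a kinase that activates Akt, rose by 0.32. Akt1 and Map2k1 turned positive under median centring in endoglin siRNA cells, to 0.44 and 0.70. Map2k1 lost its call without the 1-animal endoglin siRNA array (-0.39) and Pdpk1 without the pooled one (0.23) or either untreated array (0.32). Against untreated cells 0 of 16 passed by limma, beside 0.04% higher and 0.06% lower among all tested genes. Of the 16, 2 had an unadjusted limma p under 0.05, beside 8.37% of all tested genes. Map2k1 had -0.35 and Nras, a Ras GTPase, had 0.23. Akt1 had -0.04 and Pdpk1 0.22 against untreated cells.

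Among the 5 lists, early-response and feedback genes of growth factor signalling had the largest number of genes that rose, though not the largest share: of 25 tested genes 6 rose and 2 fell after endoglin siRNA against control siRNA, with a median of 0.09, beside 5.46% higher and 2.98% lower among all tested genes. Klf6, a transcription factor, rose by 0.63 (adjusted p = 0.00579, limma) with 0.75 with RNA of 1 animal and 0.51 with the pool. Egr1, an immediate-early transcription factor, rose by 0.56, Dusp6, a feedback phosphatase, by 0.56, and Ier2 by 0.39; Jun and Spry1 were the other 2 that passed, at 0.32 and 0.33. Junb had -0.54 and Dusp1, a MAP kinase phosphatase, -0.32, and both turned positive under median centring, to 0.43 and 0.23. Against untreated cells Junb had -0.03 and Dusp1 0.18, and the 6 that rose had 0.20 (Spry1) to 0.77 (Dusp6). These differences did not pass.

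The count of this list changed with the arrays used: without the 1-animal endoglin siRNA array, where the calls over all probes also fell to 1121 against 2467, 1 gene rose and 1 fell, without either untreated array 4 rose and 1 fell, and without the pooled endoglin siRNA array 7 rose and 2 fell. Klf6 and Junb passed each time. Without the 1-animal array Egr1, Dusp6 and Ier2 stood at 0.41, 0.52 and 0.30 and no longer passed. Dusp6 also lost its call without the pooled array (0.59), and Dusp1 without any 1 of the 4 arrays (-0.30 to -0.33). The background fit of the pooled arrays was pulled down by spots whose local background lay far above their signal. Fitted without those spots, the means over both endoglin siRNA arrays were 0.80 (Egr1), 0.53 (Dusp6), 0.36 (Ier2) and -0.65 (Dusp1). In untreated cells 0 rose and 2 fell, beside 0.50% higher and 0.32% lower among all tested genes. The 2 that fell were Junb with -0.51 (adjusted p = 0.0397, limma) and Dusp1 with -0.49 (adjusted p = 0.0353, limma). Both lost the call without either untreated array (Junb -0.64 and -0.38, Dusp1 -0.60 and -0.38). Against untreated cells 0 of 25 passed, 8 with an unadjusted p under 0.05 (8.37% of all tested genes), with a median of 0.16 where all tested genes had 0.02; Ccl2, a chemokine induced by PDGF, had 1.11 (adjusted p = 0.746, limma; leaving out the 1-animal array of endoglin siRNA cells gave 0.16 and leaving out their pool 2.06, and leaving out the 1-animal array of untreated cells gave 1.81 and leaving out their pool 0.41) and Dusp6 0.77 (adjusted p = 0.197, limma).

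**Figure D5:**
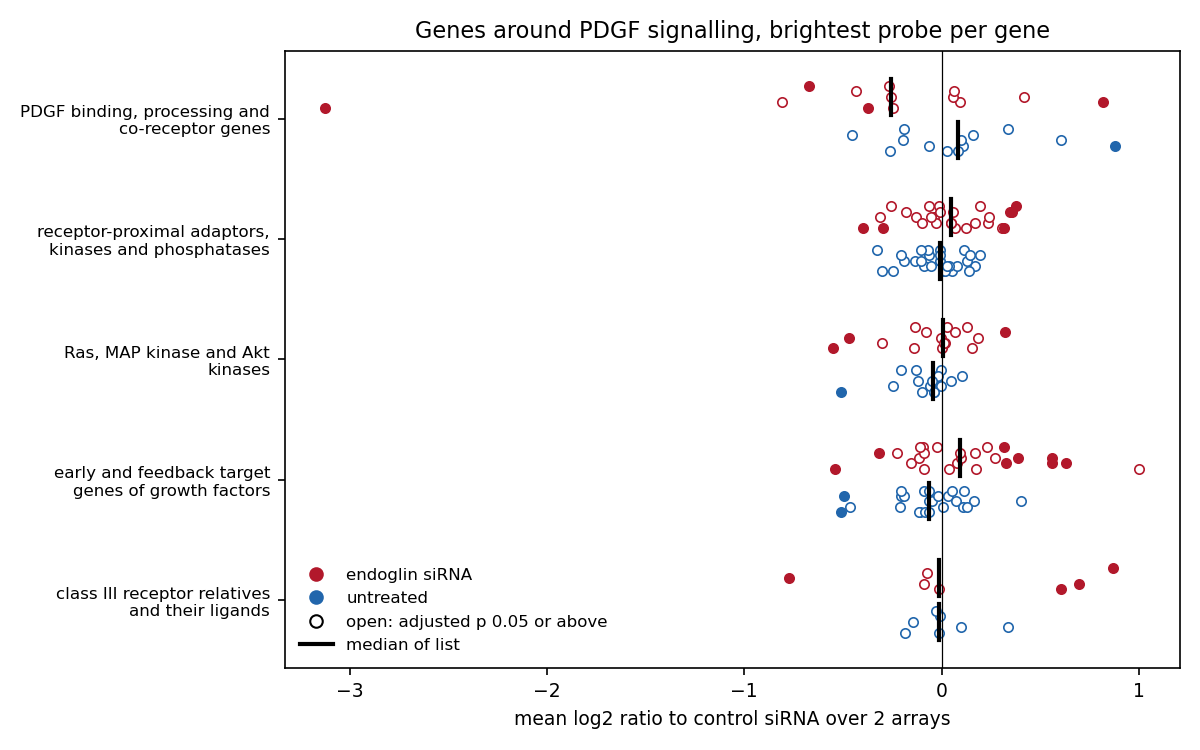
Mean log2 ratio to control siRNA over 2 arrays (horizontal axis) of genes around PDGF signalling, by list, with endoglin siRNA cells in red above untreated cells in blue. Each circle is 1 gene by its brightest probe, filled circles had a limma adjusted p under 0.05, and black bars are list medians. The early and feedback genes hold 6 filled circles right of 0 in endoglin siRNA cells, and A2m, at -3.12, is the point farthest left.

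The nearest relatives of the PDGF receptors, the other class III receptors with the VEGF receptors and their ligands, were set beside them. Of 7 tested genes 3 rose and 1 fell after endoglin siRNA against control siRNA, each time also with any 1 array left out, and the median was -0.01; among all tested genes 5.46% were higher and 2.98% lower. Kdr, the main receptor of vascular endothelial growth factor, rose by 0.87 (adjusted p = 0.0279), Kitlg, the ligand of Kit, by 0.70 (adjusted p = 0.00398), and Csf1, the growth factor of macrophages, by 0.61 (adjusted p = 0.00901), all by limma with n = 2 arrays. Flt1, a decoy-like VEGF receptor, fell by 0.77 on the log2 scale (adjusted p = 0.0139, limma). Under the processing used here the sizes differed by RNA source. Kdr had 1.33 with RNA of 1 animal and 0.41 with the pool. Flt1 had -1.07 with RNA of 1 animal and -0.47 with the pool. The background fit of the pooled arrays was pulled down by spots whose local background lay far above their signal. Fitted without those spots, the mean over both arrays was 1.31 for Kdr and -1.03 for Flt1. A dependence on the RNA source itself was not tested. In untreated cells 0 of 7 passed, beside 0.50% higher and 0.32% lower among all tested genes. Of the 7, 1 had an unadjusted limma p under 0.05, beside 13.8% of all tested genes. Csf1r, the macrophage receptor of Csf1, had 0.34 and Csf1 -0.19. Against untreated cells 0 of 7 passed, beside 0.04% higher and 0.06% lower among all tested genes. Of the 7, 4 had an unadjusted limma p under 0.05, beside 8.37% of all tested genes. Kdr had 0.90 (adjusted p = 0.358, limma) and Csf1 0.79 (adjusted p = 0.0971, limma).

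Markers of other liver cells were measured beside these results. Among all tested genes 0.50% were higher and 0.32% lower in untreated cells than in control siRNA cells. In endoglin siRNA cells 5.46% were higher and 2.98% lower than in control siRNA cells, and 23.3% had an unadjusted limma p under 0.05. Of 9 measured Kupffer cell and macrophage markers 4 were higher in untreated cells than in control siRNA cells, led by Lyz2 at 1.70 and C1qa at 1.16, and 0 of 9 passed in endoglin siRNA cells by limma, 2 with an unadjusted p under 0.05. C1qa was lower in endoglin siRNA cells than in untreated cells (-1.09, adjusted p = 0.0301, limma). The summed normalized intensity of the macrophage markers was 4748 to 22753 in endoglin siRNA cells, 17641 to 50018 in untreated cells and 4938 to 24906 in control siRNA cells, and 6 of 9 were well above background in all 8 channels. Of 4 measured platelet markers, taken because platelets carry PDGF, 1 was higher in untreated cells (Pf4, 0.89, adjusted p = 0.0406, limma) and 0 passed in endoglin siRNA cells, 1 with an unadjusted p under 0.05; their sums were 1551 to 3897 in endoglin siRNA cells, 1933 to 3698 in untreated cells and 1511 to 3007 in control siRNA cells. The part of these cells in the PDGF receptor ratios was not tested. The stellate markers split in endoglin siRNA cells against control siRNA, with 3 higher and 3 lower among 12. Cygb had 0.76, Tcf21 0.45 and Vim 0.36, and Rgs5, a pericyte gene, had -0.996, Col1a1 -0.89 and Des -0.61. Of these, Col1a1 and Des turned positive under median centring, to 0.45 and 0.64. In untreated cells Cygb (0.999), Vim (0.41) and Des (-0.76) also passed, and Tcf21 (-0.14), Rgs5 (0.26) and Col1a1 (-0.19) did not. Against untreated cells Cygb had -0.24, Vim -0.06, Des 0.15, Tcf21 0.59, Rgs5 -1.26 and Col1a1 -0.70, and these did not pass. Among the rest, 1 of 6 tested endothelial markers (Kdr) and 1 of 6 tested hepatocyte markers passed as higher, 1 of 3 tested cholangiocyte markers passed as lower, and 0 of 8 markers of portal fibroblasts and mesothelial cells passed in endoglin siRNA cells; Epcam, of cholangiocytes, was not well above background in any channel.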

How the data were processed

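Agilent 4x44K rat arrays were hybridized with total RNA, extracted with RNeasy and labelled with a linear amplification kit, per the labels. Per the file headers, the authors extracted signals with Agilent Feature Extraction 9.5.1.1. The deposited mean and local background columns hold intensity on a linear scale. The deposited Feature Extraction ratios are log10 of Cy5 over Cy3, and so are the values of the deposited series table, except that their sign is opposite on both untreated arrays; the dyes named in the labels set the direction here.

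Mean signals were background-corrected by normexp (offset 50) and normalized within arrays by loess in limma 3.58.1 (R 4.3.3; the data.table package was 1.17.8), with flagged spots left out. A probe was kept (29860 in all) if either dye was well above background on 2 or more arrays and a usable spot remained on all 4. From these intensities of the authors' files, log2 ratios were computed and fitted with a mean per group; eBayes moderated the variances (5.51 prior degrees of freedom), and p-values were adjusted over all tested probes by Benjamini-Hochberg (threshold 0.05); the 4 arrays share 1 estimate of the spread. The number of arrays limits the precision. All arrays lay on 1 slide and in 1 scan, so slide and scan were no batches. Lists used the brightest probe of each gene; names came from the files, updated by RefSeq (GRCr8), with 14086 of 29860 tested probes unmatched. Genes were named as every member, Eng, the members of each list that passed (at most 4 per direction) or else the 2 largest, and the 2 nearest genes of each tested member; Jun, Spry1, Pdgfd, Pdgfrl and the further stellate markers Tcf21, Vim and Des were added after their values were seen. The members and lists were chosen with earlier results of these data known. The fit was tested on simulated data. Alternatives changed background correction, ratios, normalization, filter, flagged spots, summary, RNA source as a block, and left out each array. With an array left out, its group holds 1 array and the spread is estimated from the other group. Calls in those fits therefore do not measure the spread of the reduced group.

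Whether arrays of 1 group are separate cultures beyond the RNA source named in the labels is not stated there, so p-values measure the spread between these arrays.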

Additional observations from a re-analysis of the deposited data

How the results depend on the processing

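The labels carry no replicate numbers; the arrays were paired by RNA source (1 animal or pool), taken as a block (correlation of the source differences 0.29 over 29860 probes). Of all probes, 2467 passed in endoglin siRNA cells against control siRNA, 30 against untreated cells, and 234 in untreated cells against control siRNA. In this order, the counts were 5572, 202 and 672 with no background correction, 5015, 217 and 548 with the background fitted without the disturbed spots, and 4770, 379 and 1402 with the block. They were 0 in all 3 with Feature Extraction log ratios, the deposited value table, median centring and scaling between arrays, where limma gave 8596, 3244 and 4119, then 8594, 3248 and 4120, then 6948, 301 and 79, then 1728, 414 and 733 at an unadjusted p under 0.05. With no filter the last 2 were 57 and 421. Leaving out each array gave 1121 to 3405, 0 to 512 and 0 to 999 (lowest without the 1-animal endoglin siRNA array, and for the other counts without the pooled untreated array, with 1425 and 2331 probes at an unadjusted p under 0.05). Of the 4 PDGF probes, 1 passed against control siRNA after endoglin siRNA, 2 with no background correction and 2 with the block, 0 with those 4 settings and 1 to 2 with an array left out; in untreated cells 0 passed, 2 with the block and 0 to 2 with an array left out. Of the PDGF genes, the directions that turned were of values that did not pass; of the named list genes, Lox, Lrp1, Shc1, Src, Akt1, Map2k1, Junb and Dusp1 passed in endoglin siRNA cells against control siRNA and turned under median centring, where they no longer passed. The cause was not tested. Pdgfa against control siRNA turned to 1.06 (median centring), 0.058 (scaling) and, with an array left out, -0.280 to 0.071, and against untreated cells to 0.79 (median centring). Under median centring, probes of like brightness to Pdgfa had a median of 1.14 in endoglin siRNA cells. Measured from the median of those probes, Pdgfa stood at -0.07 after median centring and at -0.07 after loess. Pdgfrb against untreated cells turned to 0.99 (median centring), 0.030 (scaling) and, with an array left out, -0.155 to 0.034. Measured from probes of like brightness under median centring, Pdgfrb stood at 0.31 in endoglin siRNA cells and 0.30 in untreated cells. Pdgfb, near background, stood at -0.16 and 0.04 in the same way. Pdgfb after endoglin siRNA turned to -0.044 (no background correction), -0.0022 (without the disturbed spots), -0.34 (median centring) and, with an array left out, -0.012 to 0.160. Pdgfb against untreated cells turned to -0.039 (no background correction), -0.089 (without the disturbed spots), -0.15 (Feature Extraction ratios and value table), -0.28 (median centring), -0.023 (scaling) and, with an array left out, -0.077 to 0.095. Pdgfb in untreated cells turned to -0.0057 (no background correction) and -0.061 (median centring). Median centring moved the median of all probes to 0.32 in endoglin siRNA cells against control siRNA and 0.26 against untreated cells. Slide or scan as a block was not run. Pdgfb and Pdgfc lay near background, which limits what their ratios can show.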
